A study of Mus musculus with 6 samples.

Results

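The genes described here carry the insulin signal from the cell surface towards glucose uptake and growth, or hold it back. The set listed 10 genes, and the deposited value table held 9 of them: the receptor substrates Irs1 and Irs2, the adaptors Grb10 and Grb14, the mTORC1 inhibitors Ddit4 and Ddit4l, the vesicle regulators Tbc1d1 and Tbc1d4, and the glucose transporter gene Slc2a4. Each of the 9 was read from the only array feature (a group of probes summarised as 1 value) whose annotation lists that symbol alone. Insr, the insulin receptor itself, was not analysed here. The genes were selected on their role in the pathway, and on measured values in the case of Grb14 and Ddit4l, which had been seen to be lower in cKO soleus. The values of that pair are therefore a description with no test. All 9 lay above the median of their array on all 6 arrays, and they are 9 of the 18334 genes tested. In the deposited values Grb14, Ddit4l and Tbc1d4 were lower on every cKO array than on any Control array. Slc2a4 was higher on every cKO array. By limma no feature of the whole table passed an adjusted p of 0.05, and so none of the 7 genes with a test did.

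Insulin binding to its receptor leads to tyrosine phosphorylation of IRS proteins, which recruit PI3K and so activate the kinase AKT. AKT phosphorylates TBC1D1 and TBC1D4, which lets vesicles that carry the transporter GLUT4 reach the surface of the muscle fibre, and it also activates the growth kinase complex mTORC1 through the TSC proteins. GRB10 and GRB14 bind the activated receptor and restrain it, while the products of Ddit4 (also called REDD1) and Ddit4l (REDD2) restrain mTORC1 upstream of TSC. Skeletal muscle is a main site of glucose uptake after a meal, and the soleus is a slow, oxidative calf muscle that responds strongly to insulin.

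RNA was from the soleus of male mice aged 39 to 41 weeks. The 3 Control mice were labelled wild type and described as littermates. The 3 cKO mice were labelled as knockouts of Mbtps1, the gene of site-1 protease, made with a Cre from the Dmp1 gene. Dmp1 is known as a gene of osteocytes, the cells embedded in bone. The labels give neither the Dmp1 fragment nor the alleles that the Control mice carried, and they do not say whether the muscles of both legs were pooled. Each mouse gave 1 array, and values are log2 signals, in which a difference of 1 is a doubling. Replicate numbers name the mice and do not pair them.

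The arrays correlated with each other at 0.970 to 0.995 over 33334 features tested. Mice with numbers below 750 (Control 1, Control 2 and cKO 1) separated from those above 750 (Control 3, cKO 2 and cKO 3) on the first principal component, which held 43.9% of the variance, so differences are also given within each range. The labels do not say what the ranges stand for. The array of cKO 1 had the highest median, 4.37 against 4.004 to 4.13 on the others, and the lowest weight in limma. The median feature differed by 0.07 log2 units (cKO minus Control), and 65.8% of features were higher in cKO. After quantile normalization, which gives every array 1 distribution of values, the median difference was -0.0038 and 49.1% were higher. Mbtps1 differed by 0.21 (SE 0.21, limma adjusted p = 0.999), and the part of the gene its feature reads is not given, so it does not check the labels. In whole muscle, fewer cells that express a gene and less RNA per cell cannot be told apart. Slow fibre marker genes, all 8 measured, had means of 16.2 to 16.4 on every array, with some close to the top of the scale. Of 6 bone and osteocyte markers only Bglap passed the filter on low values, and Dmp1 did not.

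Across all features tested, limma called 0% between cKO and Control at an adjusted p of 0.05. Before adjustment 4.5% lay under 0.05. None of the 7 genes with a test passed either threshold. The 3 cKO arrays lay wholly above the 3 Control arrays for 8.95% of features and wholly below them for 2.05%. Among the 9 genes, 1 lay wholly above (Slc2a4), 3 lay wholly below (Grb14, Ddit4l and Tbc1d4), and 5 overlapped. Grb14 and Ddit4l were chosen with that difference known, so their place in the count says nothing beyond the choice. After quantile normalization, and also after centring each array on its median, only Grb14 and Ddit4l still had groups that did not overlap.

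**Figure D1:**
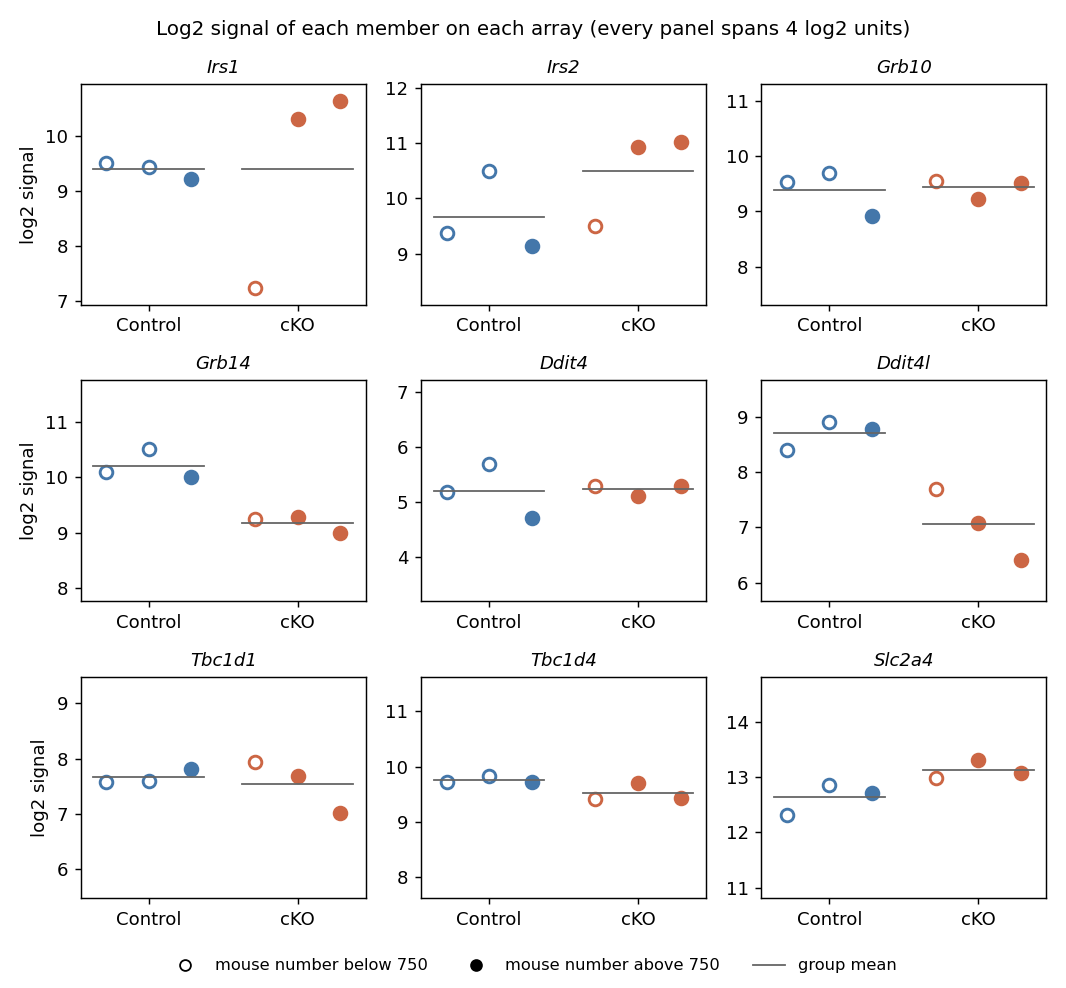
Log2 signal of the 9 genes (vertical axes, each spanning 4 log2 units) on each array, in the order Control 1 to 3 and cKO 1 to 3. Blue points are Control, orange points cKO, lines are group means, and open points are mice numbered below 750. The groups stand apart most clearly for Grb14 and Ddit4l, and Irs1 is far lower on cKO 1 than on any other array.

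By SD the receptor substrates were the most variable of the genes among cKO mice, with cKO 1 the lowest cKO array for both. Between cKO 2 and cKO 3 alone, Ddit4l (7.07 and 6.41) and Tbc1d1 (7.68 and 7.02) differed more than either substrate. Irs1, the substrate most tied to glucose uptake in muscle, gave 9.51, 9.44 and 9.22 on Control arrays 1 to 3, against 7.25, 10.30 and 10.63 on cKO arrays 1 to 3. One cKO mouse was thus below every Control and the other 2 were above every Control. Its SD was 0.15 in Control and 1.86 in cKO (n = 3 each). The mean difference was 0.01 log2 units (SE 0.85, 95% interval -2.03 to 2.04, limma adjusted p = 0.999). Without cKO 1 it was 1.08 (SE 0.20, limma adjusted p = 0.795; the alternatives spanned 0.478 to 0.9999). Among low-numbered mice, where cKO 1 faces Control 1 and 2, the value was -2.22, and among high-numbered mice it was 1.25.

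Irs2, the second main substrate, gave 9.37, 10.49 and 9.13 on Control arrays 1 to 3, against 9.51, 10.93 and 11.02 on cKO arrays 1 to 3. The groups overlapped, since Control 2 was above cKO 1, and cKO 2 and cKO 3 were the highest arrays for both substrates. The difference was 0.82 log2 units (SE 0.52, 95% interval -0.43 to 2.08), or 1.77-fold, and did not pass (limma adjusted p = 0.999, with alternatives spanning 0.273 to 0.9999). It was -0.42 among low-numbered and 1.84 among high-numbered mice, and from 0.56 (without Control 3 or without cKO 3) to 1.31 (without cKO 1) with 1 array left out. Without Control 2 it was 1.24, and with array weights 1.30. The interval covers both a lower and a much higher level.

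The RefSeq promoter windows of the pair, 250 bases before to 50 after the gene start on GRCm38.p6, are shown because both genes were highest on the same cKO arrays. Capitals mark matches on either strand to the E-box CACGTG, which basic helix-loop-helix factors bind, the GC box GGGCGG or the box CCAAT. Irs1 lies on the minus strand at chr1:82291390-82291689 and Irs2 on the minus strand at chr8:11008880-11009179.
Irs1: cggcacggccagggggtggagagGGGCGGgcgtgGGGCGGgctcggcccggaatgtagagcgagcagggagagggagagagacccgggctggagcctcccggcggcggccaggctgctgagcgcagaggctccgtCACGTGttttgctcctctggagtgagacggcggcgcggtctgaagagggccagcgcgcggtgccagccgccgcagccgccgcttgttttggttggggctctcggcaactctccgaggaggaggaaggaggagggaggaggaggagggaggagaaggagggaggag
Irs2: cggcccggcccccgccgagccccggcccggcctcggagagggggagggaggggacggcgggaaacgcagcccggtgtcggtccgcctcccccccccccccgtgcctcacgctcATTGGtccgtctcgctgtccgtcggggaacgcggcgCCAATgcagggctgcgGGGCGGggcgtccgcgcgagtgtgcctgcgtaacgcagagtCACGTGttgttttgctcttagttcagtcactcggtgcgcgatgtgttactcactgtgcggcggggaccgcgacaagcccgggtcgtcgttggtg
Both windows hold CACGTG once, starting 115 bases before the gene start in Irs1 and 44 bases before it in Irs2. Of all 32851 promoter windows of this length, 7.15% hold it, 35.7% hold GGGCGG and 37.4% hold CCAAT. None of the other 6 genes with a promoter window holds CACGTG. A match is a match of letters and does not show that a factor binds there.

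The adaptor Grb14 was lower in cKO. GRB14 inhibits the insulin receptor through direct binding to its kinase domain. Its log2 signals were 10.09, 10.52 and 10.003 on Control arrays 1 to 3, against 9.25, 9.29 and 8.99 on cKO arrays 1 to 3. All cKO arrays lay below all Control arrays, by a gap larger than the spread within either group, with means of 10.20 ± 0.28 and 9.18 ± 0.16 (SD, n = 3). The difference was -1.02 log2 units (SE 0.21), a 2.03-fold lower level. It was -1.05 among low-numbered and -0.86 among high-numbered mice. Of all features tested, 200 (0.6%) were lower in cKO by as much or more. Grb14 was chosen with its lower level known, so this rank is no support for it.

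Grb10, the close relative of Grb14 and an mTORC1 substrate as well as a receptor inhibitor, showed no such pattern. It gave 9.53, 9.70 and 8.92 on Control arrays 1 to 3, against 9.55, 9.23 and 9.52 on cKO arrays 1 to 3. The cKO values all lay inside the Control range. The difference was 0.05 (SE 0.25, 95% interval -0.55 to 0.65, limma adjusted p = 0.999). The sign turned after quantile normalization. Grb10 is imprinted in mice, and the array does not tell its 2 parental copies apart.

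Ddit4l was lower still. Its product restrains mTORC1 and the gene is known to be expressed mainly in skeletal muscle. Its log2 signals were 8.41, 8.90 and 8.78 on Control arrays 1 to 3, against 7.70, 7.07 and 6.41 on cKO arrays 1 to 3. The highest cKO array lay below the lowest Control array, and the cKO mice differed among themselves more than the Controls did (SD 0.64 against 0.26, n = 3 each). The difference was -1.63 log2 units (SE 0.34), a 3.11-fold lower level, and 43 features (0.129%) were lower by as much or more. Ddit4l was chosen with its lower level known, so this rank is no support for it. The difference was also split by mouse number. It was -0.95 among low-numbered and -2.04 among high-numbered mice.

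Ddit4, which encodes the better known stress-induced relative of Ddit4l, overlapped fully between the groups. It gave 5.19, 5.70 and 4.71 on Control arrays 1 to 3, against 5.30, 5.10 and 5.30 on cKO arrays 1 to 3. The difference was 0.03 log2 units (SE 0.25, 95% interval -0.57 to 0.63, limma adjusted p = 0.999), and its sign turned after quantile normalization. Control 2 was the highest Control and Control 3 the lowest, as for Grb10. Its signal was within 2 log2 units of the array medians, so a low expression level limits what its values can show.

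The promoter windows of Grb14, Ddit4l and Ddit4 are shown because the first pair was lower in cKO and the third, the closest relative of Ddit4l, was not. Capitals mark the GC box, the CCAAT box and the TATA box, spelled TATAAA, on either strand. Grb14 lies on the minus strand at chr2:65022717-65023016, Ddit4l on the plus strand at chr3:137623422-137623721 and Ddit4 on the minus strand at chr10:59951721-59952020, all on GRCm38.p6 from RefSeq.
Grb14: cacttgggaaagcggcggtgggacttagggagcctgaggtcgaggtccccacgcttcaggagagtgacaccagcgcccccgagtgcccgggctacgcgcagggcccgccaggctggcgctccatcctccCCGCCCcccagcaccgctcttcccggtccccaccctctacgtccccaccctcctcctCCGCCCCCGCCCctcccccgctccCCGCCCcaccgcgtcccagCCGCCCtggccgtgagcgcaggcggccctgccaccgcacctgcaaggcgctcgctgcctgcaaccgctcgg
Ddit4l: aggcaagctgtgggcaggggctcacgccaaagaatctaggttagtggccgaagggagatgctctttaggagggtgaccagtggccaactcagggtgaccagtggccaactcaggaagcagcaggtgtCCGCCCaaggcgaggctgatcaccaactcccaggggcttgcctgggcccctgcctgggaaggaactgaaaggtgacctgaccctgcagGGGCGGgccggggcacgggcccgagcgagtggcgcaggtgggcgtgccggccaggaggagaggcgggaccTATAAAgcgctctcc
Ddit4: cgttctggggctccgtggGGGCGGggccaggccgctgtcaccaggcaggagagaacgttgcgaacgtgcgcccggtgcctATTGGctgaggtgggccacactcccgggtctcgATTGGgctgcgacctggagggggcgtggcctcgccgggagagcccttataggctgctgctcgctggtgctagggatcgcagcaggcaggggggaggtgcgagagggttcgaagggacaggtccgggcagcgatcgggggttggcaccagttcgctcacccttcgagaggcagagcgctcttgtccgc
Grb14 holds the GC box 5 times, Ddit4l holds it 2 times and Ddit4 holds it 1 time. A window of Grb10 also holds it 5 times and a window of Tbc1d1 4 times, and both genes overlapped between the groups. TATAAA is found in Ddit4l alone of the 3, after the annotated start, and in 13.6% of all windows. The FOXO motif GTAAACA (3.65% of windows) and the cyclic AMP response motif TGACGTCA (1.79%) were searched too and are in none of the 10 windows of the 8 genes that have one. No match says only that these letters are not in the window.

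Grb14 and Ddit4l were set beside 12008 of the genes tested, those with a symbol in RefSeq that is not a predicted, clone, olfactory receptor or small RNA name, to find those with the most similar course over the 6 arrays. Any gene that differs between the groups correlates with them, and 6 points from 2 groups allow high values, so this is a description. For Grb14 the nearest were Ppm1a, a protein phosphatase gene (Pearson r = 0.989), Ptgr2, a prostaglandin reductase gene (r = 0.974), and Klk15, a kallikrein gene (r = 0.974). Ppm1a gave 12.86, 13.10 and 12.60 on the Control arrays, against 12.19, 12.24 and 12.01 on the cKO arrays, in the same order of arrays as Grb14. Klk15 spanned only 4.22 to 4.44, close to the array medians. For Ddit4l the nearest were Lrrc38 (r = 0.988), which encodes an auxiliary subunit of potassium channels, Fam241a (r = 0.986) and Herc1 (r = 0.981), a ubiquitin ligase gene. Among the genes compared, 19 exceeded r = 0.95 with Grb14 and 33 with Ddit4l.

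Neither regulator of GLUT4 vesicles passed the test. Tbc1d4, also called AS160, holds vesicles inside the fibre until AKT phosphorylates it. It gave 9.73, 9.83 and 9.72 on Control arrays 1 to 3, against 9.41, 9.71 and 9.43 on cKO arrays 1 to 3. The cKO arrays lay below the Controls, but cKO 2 only just, and the groups overlapped after quantile normalization and after median centring. The difference was -0.24 log2 units (SE 0.18, 95% interval -0.66 to 0.18, limma adjusted p = 0.999), and was -0.37 among low-numbered and -0.15 among high-numbered mice. With array weights it was -0.13.

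Tbc1d1, the relative that is more abundant in fast muscles of mice, gave 7.58, 7.601 and 7.81 on Control arrays 1 to 3, against 7.93, 7.68 and 7.02 on cKO arrays 1 to 3. The cKO arrays held both the highest and the lowest value. The difference was -0.12 (SE 0.26, 95% interval -0.73 to 0.50, limma adjusted p = 0.999), with 0.34 among low-numbered and -0.46 among high-numbered mice. Without cKO 3 the sign turned, to 0.15. The 9 fast fibre markers had a mean of 17.7 on cKO 2 and 15.7 to 16.6 on the other arrays. The higher mean came from Myh4 (16.9), Actn3 (15.7) and Pvalb (11.9), while the other 6 markers were about level with the other arrays. Tbc1d1 on cKO 2 lay between the other cKO values.

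Slc2a4, which encodes GLUT4, gave 12.31, 12.86 and 12.72 on Control arrays 1 to 3, against 12.99, 13.31 and 13.07 on cKO arrays 1 to 3. All cKO arrays were above all Control arrays on the deposited scale, with means of 12.63 ± 0.29 and 13.12 ± 0.17 (SD, n = 3). The difference was 0.49 log2 units (SE 0.22, 95% interval -0.04 to 1.02), or 1.40-fold, and did not pass (limma adjusted p = 0.999, with alternatives spanning 0.280 to 0.9999). It was 0.40 among low-numbered and 0.47 among high-numbered mice, and 0.42 after quantile normalization, where the groups overlapped. GLUT4 is also made by adipocytes. Of 8 adipocyte markers measured, 7 were higher in cKO (65.8% of all features were) and 5 lay wholly above Control, or 3 after quantile normalization, against 8.95% and 4.99% of all features. The list had array means of 6.16 to 6.30 in Control and 6.51 to 6.76 in cKO. Pnpla2 stood apart in it, with values of 13.3 to 14.8 and the largest difference, 1.01. The median difference of the list was 0.45. Adipoq, the defining marker, gave 5.50, 5.75 and 5.87 on Control arrays and 6.74, 5.60 and 6.13 on cKO arrays. The part of these cells in the Slc2a4 value was not tested.

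**Figure D2:**
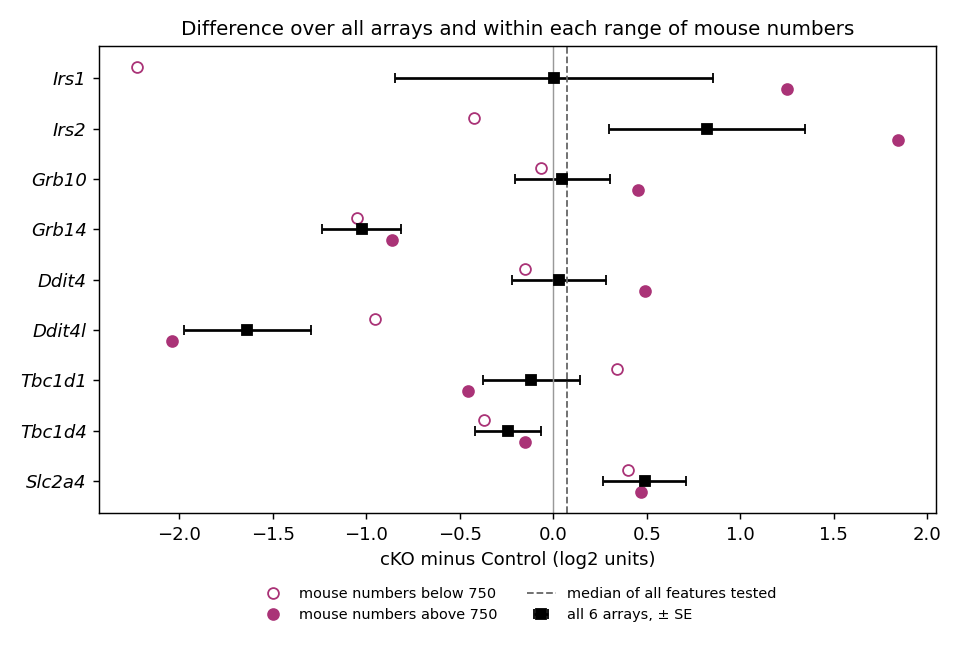
Difference in log2 signal, cKO minus Control (horizontal axis), for each gene. Squares with bars are the difference over all 6 arrays with its SE, open circles the difference among mice numbered below 750 and filled circles among those above 750, and the dashed line is the median of all features tested at 0.07. Grb14, Ddit4l, Tbc1d4 and Slc2a4 keep their sign in both ranges, and Irs1 and Irs2 take opposite signs.

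Of the 9 genes, 4 had the same sign in both ranges of mouse numbers and 5 had opposite signs. The 5 were Irs1, Irs2, Grb10, Ddit4 and Tbc1d1. Each range holds 1 array of one genotype and 2 of the other, so these are values with no test. Markers of other cell types in the dissected muscle also differed between arrays. Tendon markers were higher in cKO for 9 of 9 tested (10 listed), and for 8 of 9 after quantile normalization. Of all features tested, 65.8% and 49.1% were higher. Tendon array means were 5.77 to 6.59 in Control and 7.15 to 7.43 in cKO, and the lower arrays were Control 1 and 2. Every tested tendon marker was also higher in cKO within each range of mouse numbers. Endothelial markers were lower for 6 of 6, as were 11405 of the 33334 features tested. Their means were 9.63 to 10.8 in Control and 9.76 to 9.89 in cKO, so that those groups overlapped. The higher endothelial means were those of Control 1 and 2, and among high-numbered mice 5 of the 6 were higher in cKO. Fibroblast markers were higher in cKO for 3 of 5 tested and macrophage markers for 5 of 6. The part of these cells in the lower Grb14 and Ddit4l was not tested.

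Other genes of the pathway gave 99 tested members in 6 lists. By limma 0 of the 99 passed an adjusted p of 0.05, 11 were higher and 1 lower at an unadjusted p under 0.05, against 3.70% and 0.807% of all features. On the deposited scale every list had a median above that of all features, 0.07, and after quantile normalization the median of the receptor and PI3K brakes turned to -0.02. The counts below are on the deposited scale, with those after quantile normalization beside them. Of all features tested, 65.8% were higher in cKO on the deposited scale and 49.1% after quantile normalization. The share higher in the lists ran from 72.7% (brakes, GLUT4 traffic) to 93.3% (other mTORC1 inhibitors). After quantile normalization it ran from 45.5% to 70.6%.

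Of the 17 tested genes between the insulin receptor and AKT, 14 were higher in cKO and 3 lower, with a median of 0.16 (12 and 5, median 0.07). Without cKO 1 the median was 0.09. Igf1r, the receptor for IGF-1 and a close relative of the insulin receptor, gave 6.87, 7.02 and 7.04 on Control arrays and 7.43, 7.31 and 7.51 on cKO arrays, a difference of 0.44 (SE 0.15, limma adjusted p = 0.999). Akt2, the AKT form most tied to glucose uptake, differed by 0.38 (SE 0.17). Of 11 brakes on the receptor and PI3K, 8 were higher and 3 lower, with a median of 0.09 (5 and 6, median -0.02), which was 0.06 without cKO 1. Inpp5k, a phosphoinositide phosphatase of muscle, differed by 0.57 (SE 0.20), and the phosphatase gene Inpp5d by 0.21 (SE 0.11). Inpp5d had values of 4.43 to 4.74, close to the array medians.

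Among 22 genes of GLUT4 vesicle traffic and glucose entry, 16 were higher and 6 lower, with a median of 0.13 (13 and 9, median 0.05). Trarg1, a protein of GLUT4 vesicles best known from fat cells, gave 4.74, 4.78 and 4.83 on Control arrays and 5.37, 5.17 and 5.67 on cKO arrays, a difference of 0.62 (SE 0.16, limma adjusted p = 0.999), and lay within 2 log2 units of the array medians. Of the 8 adipocyte markers given above, 7 were also higher in cKO and Retn was lower. On cKO 2 Adipoq was 5.60, below Control 2 (5.75) and Control 3 (5.87). Lep there (4.41) was inside the Control range and Retn (4.52) below it. Plin1, Cidec, Pck1, Lipe and Pnpla2 were above every Control on cKO 2, as was Trarg1. The part of adipocytes in the Trarg1 value was not tested. The motor protein gene Myo1c differed by 0.46 (SE 0.16). Rala, a small GTPase of vesicle docking, differed by -0.63 (SE 0.26), with -1.05 among high-numbered and -0.07 among low-numbered mice.

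For mTORC1 and mTORC2, 17 of 23 subunit and readout genes were higher and 6 lower, with a median of 0.11 (14 and 9, median 0.03). The kinase gene Rps6kb2 differed by 0.55 (SE 0.15), the shared subunit Mlst8 by 0.62 (SE 0.20), and Eif4ebp1, whose product represses translation until mTORC1 phosphorylates it, by 0.59 (SE 0.21). In the list 5 of 23 lay wholly above Control, and 4 after quantile normalization. Without cKO 1 the median of the list was 0.02. Of 15 tested genes listed as other mTORC1 inhibitors, 14 were higher and 1 lower, with a median of 0.25 (10 and 5, median 0.15). Wholly above Control lay 9 of the 15 (8.95% of all features did). That count was 3 after quantile normalization (4.99% of all features) and 2 after centring (5.15%). On the deposited scale most genes of this list differed in the opposite direction from Ddit4l, as did 65.8% of all features tested. Ddit4l was chosen for its lower level, so this contrast says nothing beyond the choice. Flcn, Fnip1 and Fnip2 are counted in the list, though they are not plain inhibitors of mTORC1. Nprl2, a GATOR1 subunit, differed by 0.52 (SE 0.16), Tbc1d7, the third subunit of the TSC complex, by 0.79 (SE 0.30), and Fnip1, the partner of folliculin, by 1.04 (SE 0.40), with 0.19 among low-numbered and 2.04 among high-numbered mice. Without Control 1 Tbc1d7 differed by 0.52, and without Control 3 Fnip1 differed by 0.67. The 1 lower gene was Sesn3, a sestrin named here after its value was seen, at -0.72 (SE 0.38).

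Of 11 genes for AMP-activated kinase and its activators, 9 were higher and 2 lower, with a median of 0.22 (7 and 4, median 0.14), which was 0.11 without Control 1 and 0.14 without cKO 1. Strada, the pseudokinase partner of the activating kinase LKB1, differed by 0.40 (SE 0.13), and the muscle subunit Prkag3 by 0.42 (SE 0.22). Prkag3 differed by 0.48 among low-numbered and 0.09 among high-numbered mice, and by 0.24 without Control 1. Neither passed (limma adjusted p = 0.999 for both).

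**Figure D3:**
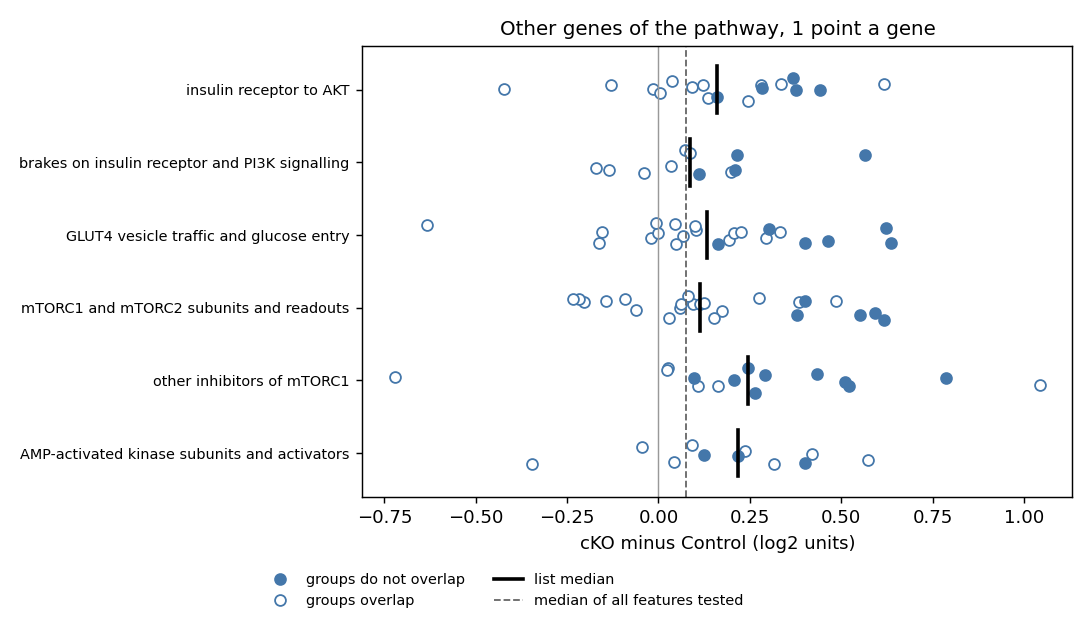
Difference in log2 signal, cKO minus Control (horizontal axis), for the 99 tested genes of the 6 pathway lists, 1 point a gene. Filled points have groups that do not overlap, thick black lines are list medians and the dashed line is the median of all features. Most points of every list lie to the right of 0 on the deposited scale, as do 65.8% of all features tested. Sesn3 at -0.72 and Rala at -0.63 are the lowest.

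**Figure D4:**
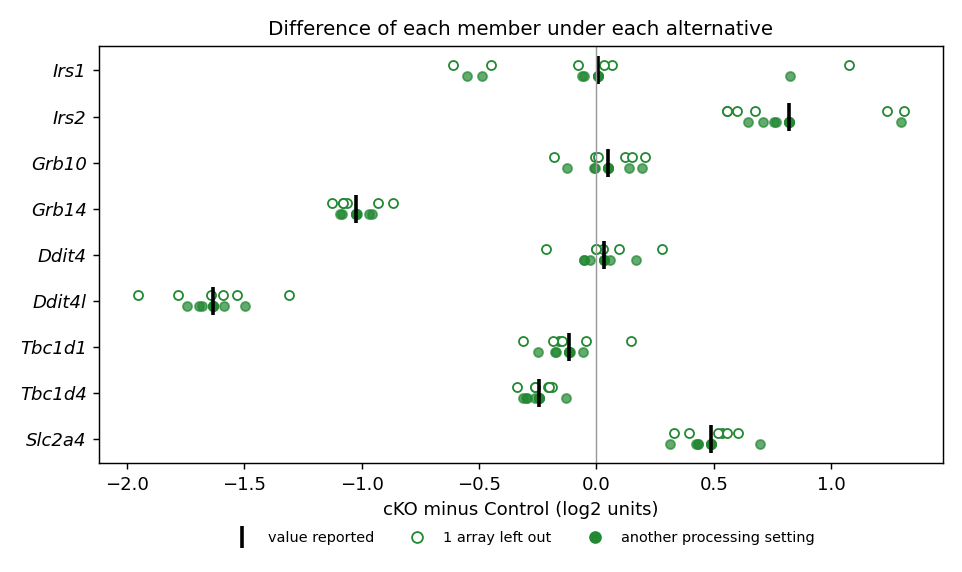
Difference of each of the 9 genes, cKO minus Control in log2 units (horizontal axis), as reported (black bar), with 1 array left out (open points) and under other processing settings (filled points). Grb14 ranges from -1.12 to -0.87 and Ddit4l from -1.95 to -1.31, while Irs1 ranges from -0.61 to 1.08.

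Under 16 alternatives (15 for Ddit4), 5 of the 9 kept their sign throughout: Irs2, Grb14, Ddit4l, Tbc1d4 and Slc2a4. Several of these settings change the test and not the difference. Grb14 and Ddit4l were chosen for a large difference, so their kept sign is no support for it.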

How the data were processed

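Total RNA from soleus was converted to biotinylated cDNA (Affymetrix WT Plus) and hybridised, 1 array a mouse, per the labels' protocols. The deposited table holds 1 column per array, read as log2 signals from their range of 1.92 to 19.9; summarisation, normalization, software and build are not given in the sources used here. Of 72688 features 65956 had values. Symbols came from the platform annotation, updated by Entrez identifier through RefSeq (GRCm38.p6), with 30604 features carrying 1 symbol; where a gene had several, that with the highest mean was used. Features above their array's median on at least 3 arrays were tested (33334) with limma 3.58.1 in R 4.3.3 (lmFit, eBayes with a trend), two-sided, cKO minus Control, with no block and Benjamini-Hochberg adjustment over all of them. Intervals are 95%. The fit was tested on simulated data. SEs, intervals and p-values rest on the spread between these mice, pooled over both groups. limma moderates that spread for each feature towards a trend over all features tested. Having 3 arrays a group limits every value.

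The genes, lists, tests and alternatives were chosen with earlier results of these data known. Pathway genes were named where the unadjusted p was under 0.05, or as the 2 smallest of a list, and for Grb14 and Ddit4l the 3 genes of highest correlation over the arrays; Sesn3 was added after its value was seen. Of the pathway genes listed, 7 had no feature with 1 symbol and 5 lay below the filter. Promoters came from RefSeq for 8 genes. Same-numbered mice did not deviate together in all 3 pairs (correlations of 0.13, -0.20 and 0.21), so numbers were not treated as pairs. Plots used Python 3.11.15, pandas 2.3.3 and matplotlib 3.10.9.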

Additional observations from a re-analysis of the deposited data

How the results depend on the processing

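The alternatives were quantile normalization, median centring, no filter or one at the 75th percentile, no variance trend, array weights, the replicate number or number range as a block, quantile normalization with the range block, each array left out, and averaging a gene's features. Those of the 15 named pathway genes and Mbtps1 were added after the data were seen, and none of the pathway genes turned sign. The pathway genes were named for the smallest limma p-values in these same arrays, so their kept sign is no support for a difference. None of the 7 tested genes of the set, the 15 named pathway genes and Mbtps1 passed under any of these settings. The differences of Grb14 (-1.12 to -0.87), Ddit4l (-1.95 to -1.31), Irs2, Tbc1d4 and Slc2a4 kept their sign under all, but the filters, the trend, the replicate block and averaging features cannot move a difference here, since each gene has 1 feature and the groups are balanced. Irs1 differed by -0.0621 after quantile normalization, -0.0526 after centring, -0.49 with the range block, -0.55 with quantile normalization and that block, and 0.82 with array weights, and by -0.61 to 1.08 with 1 array left out. Grb10 differed by -0.0074, -0.0084 and, with array weights, -0.12, and by -0.18 to 0.21 with 1 array left out. Ddit4 differed by -0.0541, -0.0268 and, with array weights, -0.0540, and by -0.21 to 0.28 with 1 left out; the stricter filter removed it. Tbc1d1 ran from -0.31 to 0.15 with 1 array left out. The cause was not tested. The count at an adjusted p of 0.05 was 0, from 0 to 14 with 1 array left out (14 without Control 3). With a fold of 1.5 and p below 0.01 before adjustment the count was 223; it was 130 after centring, 823 with array weights, 94 at a fold of 2, and 94 (without cKO 3) to 944 (without Control 3) with 1 array left out. With the replicate block it was 217, while the count at an adjusted p of 0.05 stayed at 0 and no difference changed. Low signal limits Ddit4, Trarg1 and Inpp5d.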
